A study of Drosophila melanogaster with 23 samples.

Results

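The 7 genes Ssk, mesh, Tsp2A, cora, kune, dlg1 and scrib encode proteins of the septate junctions and the lateral polarity module of the fly gut epithelium. They were chosen by name as smooth septate junction, pleated septate junction and polarity genes, with earlier results of these data known. Counts of these genes beside the share of all genes are therefore descriptions. The genes were matched by FlyBase symbol and gene ID to the deposited tables, which hold 17714 gene IDs. All 7 were found, and all 7 passed the filter of a mean of 10 reads per library in both models. RNA was sequenced from midguts of flies that expressed a reprogramming construct, a senolytic construct, both or a control construct constantly, under a driver limited to intestinal stem cells (ISC model) or a ubiquitous driver (ubiquitous model).

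In the ISC model the driver stock carried esgGal4, UAS-GFP and tubGal80ts, so that all 4 groups of that model share escargot-driven Gal4, GFP and the temperature-sensitive Gal80 repressor. The stock list also names UAS-dCas9.VPR for this line. Escargot marks stem cells and enteroblasts, so this driver is directed to those cells and not to mature enterocytes. Where the constructs were expressed was not measured here. In the ubiquitous model the driver stock carried armGal4 with tubGal80ts, listed in places with UAS-GFP, and all 4 groups share these. Within each model the OKSM group carried UAS-OKSM, which encodes the reprogramming factors Oct4, Klf4, Sox2 and Myc. The Sen group carried UAS-Sen, a senolytic peptide designed on a fly forkhead box gene, the OKSM-Sen group carried UAS-Sen with UAS-OKSM, and the WT group carried UAS-TdTomato, a fluorescent protein. Reads from the transgenes were not analysed here. Every group had 3 libraries except ubiquitous Sen, which had 2 (replicates 2 and 3), giving 23 libraries in all. The labels call the tissue of the ISC libraries intestinal stem cells, whereas the methods describe whole dissected midguts, and the sources used here give neither age nor sex of the flies. The labels do not say whether the replicates are separate cohorts of flies, and the p-values measure only the spread between these libraries.

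Septate junctions are the occluding junctions of insect epithelia and do the work that tight junctions do in vertebrates. Ssk (Snakeskin), mesh and Tsp2A (a tetraspanin) encode membrane proteins of the smooth septate junctions of the midgut, which depend on one another to reach the junction and whose loss makes the gut leak. cora (Coracle, a FERM-domain scaffold) and kune (Kune-kune, a claudin-like protein) are best known from the pleated septate junctions of ectodermal epithelia such as the hindgut, foregut and trachea. dlg1 (Discs large) and scrib (Scribble) encode scaffolds that set the lateral membrane domain and mark septate junctions in many fly epithelia.

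Assigned reads (RSEM's expected counts) totalled 14626936 to 18974759 per library in the ISC model (median 16719848) and 33438269 to 46324866 in the ubiquitous model (median 34838321), so counting error was smaller in the ubiquitous libraries. All replicate pairs differed by far more than counting noise, and no library was a copy of another. The labels record that the annotations of ISC Sen replicate 3 and ISC OKSM-Sen replicate 3 had been exchanged and were then corrected, and results that change without these 2 libraries are named where they are given. Enterocyte markers, with the trypsin gene betaTry the highest, summed to 18901 to 25647 unscaled CPM (reads per 1000000 assigned reads) in ISC WT guts and 31984 to 34464 in ubiquitous WT guts, and no marker of the list was at 0. Markers of the cuticle-lined hindgut and foregut, which have pleated septate junctions, summed to no more than 197 unscaled CPM in any library, and tracheal markers to no more than 27.8. In RNA from whole guts, fewer cells of a type and less RNA per cell cannot be told apart.

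The genes lie on 4 of the fly's chromosome arms, and all 7 are protein coding. In the BDGP6.54 annotation Ssk (FBgn0036945) spans 3L, 20188522 to 20189779 on the plus strand, mesh (FBgn0051004) 3R, 31178389 to 31195762 on the minus strand, and Tsp2A (FBgn0024361) X, 1346553 to 1348143 on the plus strand. cora (FBgn0010434) spans 2R, 19229063 to 19243751, kune (FBgn0033032) 2R, 5671741 to 5672800, dlg1 (FBgn0001624) X, 11369665 to 11409776 and scrib (FBgn0263289) 3R, 26536350 to 26604051, each on the plus strand. Annotated transcripts number 1 for kune, 2 each for Ssk and Tsp2A, 5 for mesh, 6 for cora, 18 for scrib and 21 for dlg1. Ssk lies within the span of CG42674, Tsp2A within that of MTPAP, and mesh and scrib overlap bnk and lncRNA:CR46084, each on the opposite strand and each with 0 bases of shared exon. CG42674 had 123 to 207 CPM, and its log2 fold change in ISC Sen guts was -0.12, against 0.66 for Ssk. The sources do not say whether counting used strand, but with no shared exon only reads from introns could be assigned to the wrong gene of such a pair.

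Levels between genes were compared per length, as the authors' TPM, which corrects for gene length and scales every library to the same total. Ssk was the most abundant transcript of the 7, at 632 to 1317 TPM (median 999) over the 23 libraries. Tsp2A followed at 274 to 664 TPM (median 442) and mesh at 193 to 544 TPM (median 371). Below these smooth septate junction genes, cora was listed at 34.6 to 90.5 TPM (median 56.5) and scrib at 29.5 to 55.9 TPM (median 39.9). The lowest levels were those of kune, at 7.0 to 13.6 TPM (median 11.4), and dlg1, at 7.36 to 12.1 TPM (median 10.3).

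The order Ssk, Tsp2A, mesh, cora, scrib held in 23 of 23 libraries. The step from Tsp2A to mesh was small, and their ranges within a group overlapped in several groups, whereas cora and scrib overlapped in ubiquitous WT guts alone. kune lay above dlg1 in 16 of 23 libraries and the pair overlapped within most groups, so these neighbours were not separated by the spread between libraries.

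**Figure D1:**
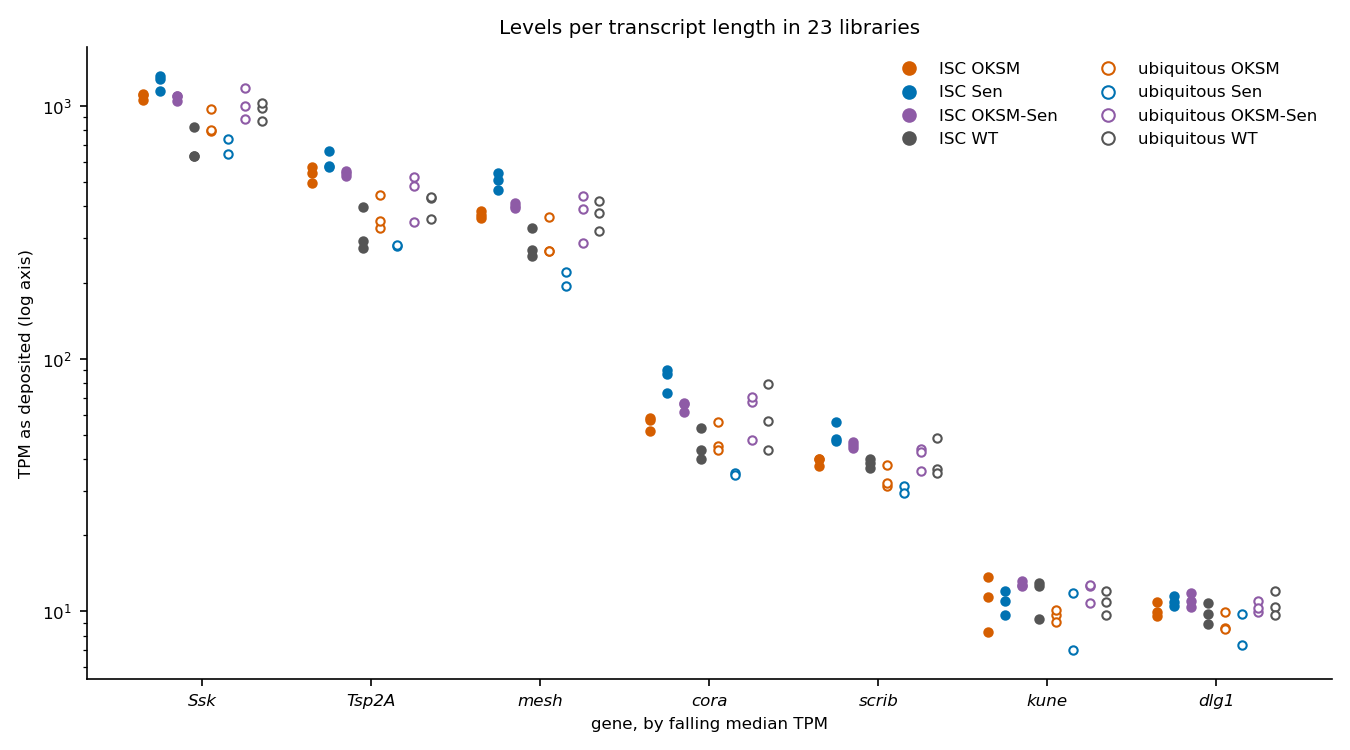
Level of each gene in each of the 23 libraries in the authors' TPM (log axis), by group, with one point per library. The 3 smooth septate junction genes lie above cora and scrib in every library, and kune and dlg1 share the lowest band.

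Within a gene, libraries were compared as CPM scaled by the trimmed mean of M-values over all 23 libraries. The ratio of the highest to the lowest library was 2.41 for mesh, 2.34 for cora, 2.08 for Tsp2A and 1.93 for Ssk. It was smaller for kune (1.66), scrib (1.64) and dlg1 (1.51). The lowest library was one of ubiquitous Sen guts for mesh and cora and one of ISC WT guts for Ssk and Tsp2A. kune rested on 122 to 506 reads per library, against 23747 to 97457 for mesh, so its values carry the largest counting error of the 7.

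**Figure D2:**
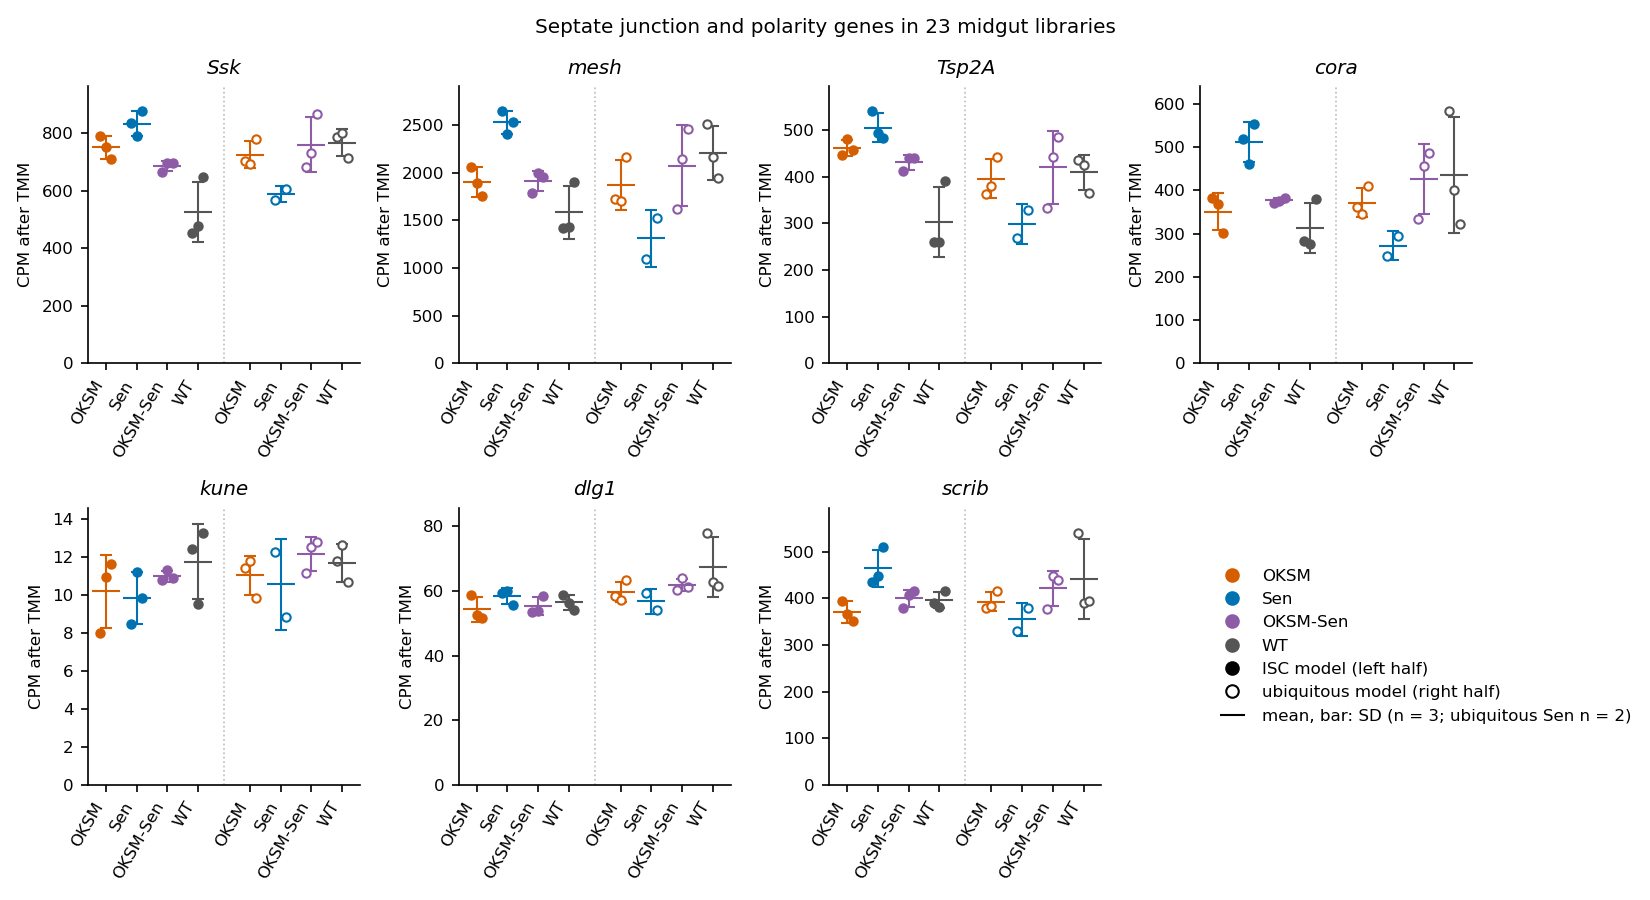
CPM of each gene in each library of the 8 groups, one panel per gene, with points for libraries, horizontal lines for group means and bars for the SD (n = 3, ubiquitous Sen n = 2); the y axes start at 0. In the ISC model the Sen points of Ssk, mesh, Tsp2A and cora lie above all WT points, and in the ubiquitous model they lie below all WT points.

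In the ISC model, the senolytic construct was compared with the control for its effect on the gut. Ssk, mesh, Tsp2A, cora and scrib rose in Sen guts relative to WT, while kune and dlg1 did not pass the test. The 3 smooth septate junction genes and cora were 1.58-fold to 1.66-fold higher. In this comparison 36.5% of all 9374 genes tested were called at a false discovery rate of 10%, and 18.2% were called higher, against 5 of 7 here. The 7 genes were chosen with earlier results of these data known, so this count is no independent test.

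Ssk had CPM values of 791, 751 and 711 in OKSM guts, 835, 789 and 877 in Sen guts, 664, 697 and 697 in OKSM-Sen guts, against 453, 479 and 648 in WT guts, in order of replicates. All 3 Sen libraries and every library of the other constructs lay above the 3 WT libraries, of which replicate 3 was the highest. Ssk averaged 834 ± 44.0 CPM in Sen guts and 527 ± 106 in WT guts (SD, n = 3 each), and the test of edgeR gave a log2 fold change of 0.66 with an adjusted p of 0.00336 (95% confidence interval 0.38 to 0.93). mesh had CPM values of 2063, 1896 and 1752 in OKSM guts, 2648, 2409.6 and 2531 in Sen guts, 1791, 1995 and 1955 in OKSM-Sen guts, against 1419, 1435 and 1908 in WT guts. Its Sen libraries were the highest of the model, whereas in CPM its OKSM and OKSM-Sen libraries overlapped WT replicate 3. In TPM its OKSM (360 to 385) and OKSM-Sen libraries (394.5 to 413) lay above those of WT (255 to 328). The median gene itself stood 0.13 (OKSM) and 0.25 (OKSM-Sen) higher than in WT guts in TPM on the log2 scale. The share of all genes that separate in TPM was not counted. For mesh in Sen guts, edgeR gave log2 fold change 0.67, 95% confidence interval 0.39 to 0.95, adjusted p = 0.00330.

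Tsp2A had CPM values of 447, 480.0 and 457 in OKSM guts, 541, 494 and 482 in Sen guts, 412, 441 and 439 in OKSM-Sen guts, against 260.0, 260.0 and 390.3 in WT guts. WT replicates 1 and 2 were lowest, and WT replicate 3 lay below all 9 libraries with a construct. The difference between Sen and WT guts was the largest of the 7 genes (edgeR, log2 fold change 0.73, 95% confidence interval 0.42 to 1.04, adjusted p = 0.00379). cora, the FERM-domain scaffold, had CPM values of 381, 368 and 301 in OKSM guts, 519, 462 and 553 in Sen guts, 372, 375 and 383 in OKSM-Sen guts, against 283, 276 and 379 in WT guts. The Sen libraries stood above the rest, and in CPM the OKSM and OKSM-Sen libraries overlapped those of WT. In TPM the OKSM-Sen libraries (61.7 to 66.7) lay above those of WT (39.9 to 52.9), while the OKSM libraries still overlapped them. The median gene of OKSM-Sen guts also stood 0.25 higher than in WT guts in TPM on the log2 scale. For cora in Sen guts, edgeR gave log2 fold change 0.70, 95% confidence interval 0.41 to 1.00, adjusted p = 0.00360. scrib, the polarity scaffold, had CPM values of 395, 366 and 351 in OKSM guts, 436, 448 and 509.5 in Sen guts, 379.9, 407 and 415 in OKSM-Sen guts, against 390.3, 382 and 417 in WT guts. Sen libraries again were the highest, by a smaller margin (edgeR, log2 fold change 0.22, 95% confidence interval 0.04 to 0.41, adjusted p = 0.0734).

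Groups whose libraries all lie above those of WT were seen for Ssk, mesh, Tsp2A, cora and scrib in Sen guts, and 22.8% of all genes lay wholly above WT in this way. In OKSM and OKSM-Sen guts only Ssk and Tsp2A did so, beside 20.2% and 20.3% of all genes. kune had CPM values of 8.0, 10.9 and 11.6 in OKSM guts, 8.47, 11.2 and 9.81 in Sen guts, 10.8, 11.3 and 10.9 in OKSM-Sen guts, against 12.4, 9.52 and 13.3 in WT guts, and its groups overlapped throughout. In Sen guts its log2 fold change was -0.26 (95% confidence interval -0.63 to 0.10). dlg1 ranged from 51.7 to 60.1 CPM over the 12 ISC libraries, and its log2 fold change in Sen guts was 0.04 (95% confidence interval -0.13 to 0.21).

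The calls of Ssk, mesh, Tsp2A and cora in Sen guts held in each alternative run. The call of scrib was lost without Sen replicate 3 (edgeR adjusted p = 0.242), WT replicate 1 (0.165), WT replicate 2 (0.194) or OKSM-Sen replicate 2 (0.103), and without both relabelled libraries (0.288). It was also lost at a false discovery rate of 5%, with no filter on low counts (0.103) and in the fit of all 23 libraries (0.155). In TPM the median gene of the ISC model stood 0.13, 0.15 and 0.25 higher on the log2 scale in OKSM, Sen and OKSM-Sen guts than in WT guts (in the ubiquitous model -0.07, -0.07 and 0.10). The fold changes given here are relative to that shift.

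Markers of other cells moved in the same comparison. Of 9 markers of intestinal stem cells and enteroblasts (their progeny), 8 rose in Sen guts, and the summed level of the 9 was 154 to 173 unscaled CPM in Sen guts against 62.0 to 93.3 in WT guts. Of 9 visceral muscle markers 2 rose, with sums of 1935 to 2181 in Sen guts and 1116 to 1423 in WT guts. The hindgut and foregut markers, whose tissue carries pleated junctions, summed to 104 to 108 in Sen guts and 143 to 153 in WT guts, and 2 of them fell. Malpighian tubule markers summed to 524 to 941 in Sen guts and 349 to 381 in WT guts. Enterocyte markers summed to 24938 to 27746 in Sen guts and 18901 to 25647 in WT guts. Glial markers, led by Gs2 and with nrv2 also in the core junction list, summed to 336 to 406 in Sen guts and 526 to 653 in WT guts, with 1 of 4 tested genes higher and 1 lower, and tracheal markers to 7.55 to 14.1 in Sen guts and 14.3 to 19.4 in WT guts, with 1 of 4 lower. The share of reads assigned to rRNA, snoRNA and snRNA genes, which were left out of the tests, was 5.66, 6.25 and 7.08% in Sen guts against 4.23, 3.82 and 4.13% in WT guts, and it lay above WT in OKSM (4.50 to 7.64%) and OKSM-Sen guts (4.95 to 6.52%) as well. The part of these cells and of this share in the levels of the junction genes was not tested.

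**Figure D3:**
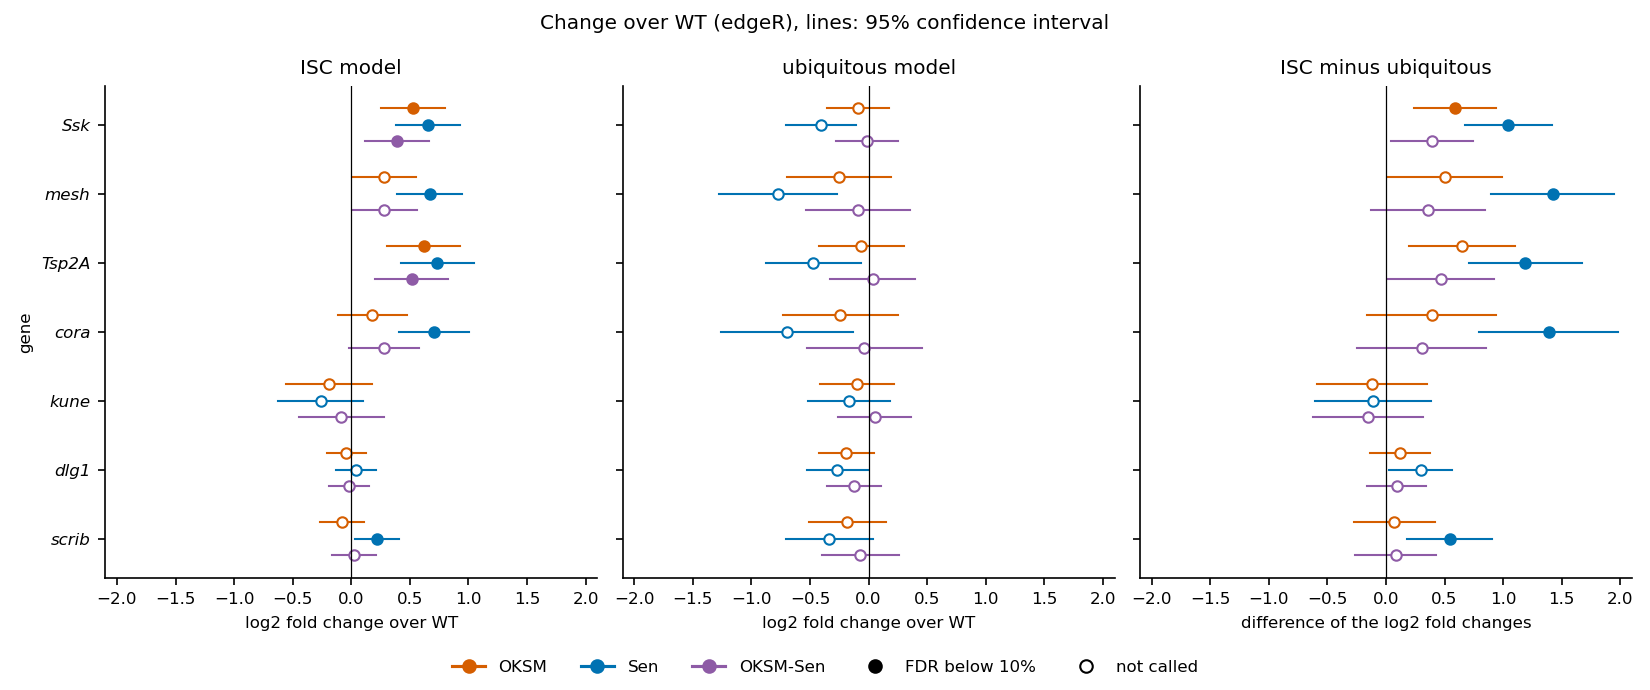
Log2 fold change over WT of each gene for OKSM, Sen and OKSM-Sen in the ISC model (left) and in the ubiquitous model (middle), and the difference between the models (right), with 95% confidence intervals and filled points where the false discovery rate of 10% was passed. Of the changes over WT, filled points stand in the ISC model alone, and the Sen points of Ssk, mesh, Tsp2A and cora lie on opposite sides of 0 in the models.

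The reprogramming construct alone raised Ssk and Tsp2A in the ISC model. In OKSM guts Ssk averaged 751 ± 39.9 CPM, against 527 ± 106 CPM in WT guts (SD, n = 3 each), a 1.44-fold difference (edgeR log2 fold change 0.53, adjusted p = 0.0130). Tsp2A averaged 461 ± 17.1 CPM in OKSM guts and 303 ± 75.2 CPM in WT guts, which was 1.54-fold (edgeR log2 fold change 0.62, adjusted p = 0.0113). These are 2 of 7 genes, both higher, where 17.3% of all genes were called higher and 32.3% in either direction. The count is close to the share in either direction. mesh did not pass (edgeR log2 fold change 0.28, 95% confidence interval 0.00 to 0.56, adjusted p = 0.131), nor did cora (0.18, -0.12 to 0.48). The log2 fold changes of scrib (-0.08), dlg1 (-0.04) and kune (-0.19) were negative, and none passed. In TPM the ratios of mean levels of scrib and dlg1 were 0.02 and 0.04 on the log2 scale, where the median gene stood 0.13 higher. Without WT replicate 3, which was the highest WT library of Ssk, mesh, Tsp2A, cora, kune and scrib, 4 genes were called in OKSM guts, as mesh (0.43, edgeR adjusted p = 0.00904) and cora (0.34, 0.0520) joined them. Stem cell and enteroblast markers summed to 99.9 to 129 unscaled CPM in OKSM guts (4 of 9 rose) and visceral muscle markers to 1744 to 3125 (5 of 9 rose), against the WT sums above.

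With both constructs the same pair of genes was called. Ssk averaged 686 ± 18.7 CPM in OKSM-Sen guts, 1.31-fold the WT mean (edgeR log2 fold change 0.39, adjusted p = 0.0461). Tsp2A averaged 431 ± 16.3 CPM, 1.43-fold the WT mean (edgeR log2 fold change 0.52, adjusted p = 0.0263). Again 2 of 7 stood beside 29.0% of all genes called and 15.7% called higher. The log2 fold changes of mesh and cora were 0.28 (edgeR adjusted p = 0.138) and 0.28 (0.166), and those of scrib, dlg1 and kune were 0.03, -0.02 and -0.09. As ratios of mean TPM these 3 were 0.24, 0.18 and 0.14 on the log2 scale, each below the 0.25 of the median gene. The signs of dlg1 and kune thus depend on the scale, and in TPM both rose less than the median gene. These calls rested on few libraries. The number of genes called was 0 without WT replicate 2, 1 without WT replicate 1, OKSM-Sen replicate 2 or OKSM-Sen replicate 3, and 4 without WT replicate 3, when mesh (0.43) and cora (0.44) passed as well. Without both relabelled libraries 1 gene was called, since Ssk had an edgeR adjusted p of 0.149. Stem cell and enteroblast markers summed to 132 to 150 unscaled CPM in OKSM-Sen guts (5 of 9 rose) against 62.0 to 93.3 in WT guts, enteroendocrine markers to 632 to 825 (3 of 11 rose and 1 fell) against 556 to 616, and glial markers to 353 to 429 against 526 to 653, with no overlap. Their part in the values was not tested.

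OKSM-Sen guts were set against each single construct and against the sum of their effects. Against OKSM guts, 0 of 7 genes were called by edgeR, 0 had an unadjusted p under 0.05 and DESeq2 called 0, beside 0.672% of all genes called. Against Sen guts 0 were called by edgeR, 3 had an unadjusted p under 0.05 and DESeq2 called 2, beside 0.555%, 11.2% and 2.95% of all genes by these rules, with log2 fold changes of -0.42 for cora and -0.39 for mesh (edgeR adjusted p = 0.276 and 0.295). The interaction asks how far the log2 fold change of OKSM-Sen departs from the sum of those of OKSM and Sen. It was negative for Ssk (-0.79, 95% confidence interval -1.18 to -0.41, edgeR adjusted p = 0.0182), for Tsp2A (-0.84, -1.27 to -0.40, 0.0232), for mesh (-0.67, -1.06 to -0.27, 0.0342) and for cora (-0.60, -1.02 to -0.19, 0.0589). In each of these 4 genes the level with both constructs was thus below what adding the single effects gives. The interaction uses the same WT libraries as the single effects, so a low WT level by itself makes it more negative. WT replicates 1 and 2 lay below WT replicate 3 in each of these genes. Of all genes 21.9% were called for the interaction and 11.4% with a negative sign. scrib (-0.12), dlg1 (-0.02) and kune (0.36) did not pass. A single test of any difference over the 4 groups of the ISC model called 5 of 7 genes, all but kune and dlg1, beside 35.7% of all genes. The interaction of mesh was lost without both relabelled libraries (edgeR adjusted p = 0.128), and that of cora without these (0.196), at a false discovery rate of 5%, in the fit of all 23 libraries (0.142) and when single libraries of several groups were left out.

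**Figure D4:**
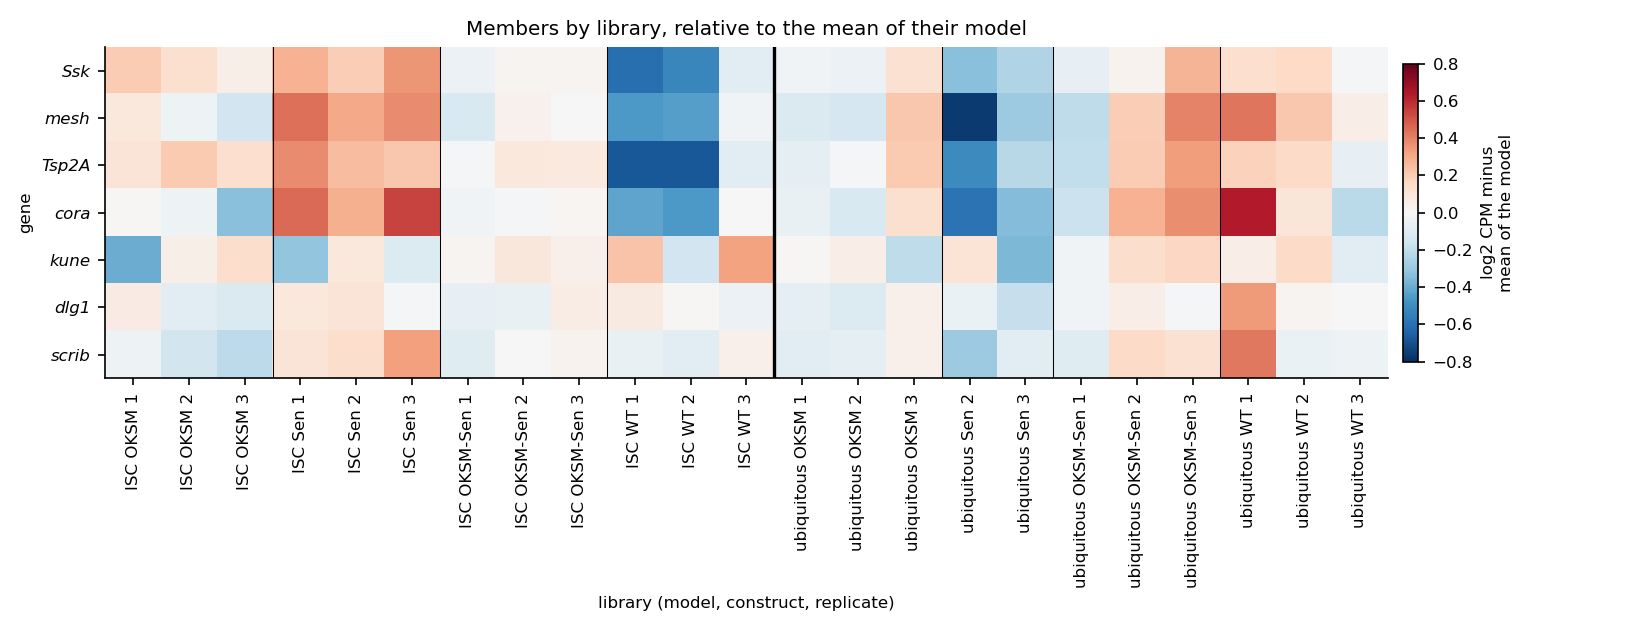
Log2 CPM of each gene (rows) in each of the 23 libraries (columns), centred on the mean of the gene in its own model, in colour. The rows of Ssk, mesh, Tsp2A and cora are high across ISC Sen libraries and low in ISC WT replicates 1 and 2 and in both ubiquitous Sen libraries, and the row of kune does not follow them.

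In the ubiquitous model none of the 7 genes passed the test against WT in any group. Ssk had CPM values of 704, 694 and 781 in OKSM guts, 568 and 608 in Sen guts, 685, 731 and 867 in OKSM-Sen guts, against 787, 801 and 714 in WT guts. Both Sen libraries were the lowest of the model and lay below the lowest WT library. mesh had CPM values of 1728, 1705 and 2172 in OKSM guts, 1098 and 1525 in Sen guts, 1625, 2145 and 2459.8 in OKSM-Sen guts, against 2511, 2169.6 and 1941 in WT guts. Here Sen replicate 2 was the lowest of all 23 libraries, and the OKSM-Sen replicates spread widely. Tsp2A had CPM values of 363, 381 and 443 in OKSM guts, 269 and 329 in Sen guts, 334, 442 and 484 in OKSM-Sen guts, against 437, 426 and 366 in WT guts. cora had CPM values of 360.3, 345 and 411 in OKSM guts, 249 and 295 in Sen guts, 333, 455 and 487 in OKSM-Sen guts, against 583, 401 and 323 in WT guts. In both genes the Sen libraries lay below all WT libraries, and cora in WT replicate 1 was the highest of the 23 libraries. scrib had CPM values of 379, 383 and 416 in OKSM guts, 329 and 380.0 in Sen guts, 377, 448 and 438 in OKSM-Sen guts, against 541, 389 and 393 in WT guts, with WT replicate 1 again the highest. kune ranged from 8.85 to 12.8 CPM and dlg1 from 54.1 to 78.1 CPM over the 11 libraries, and the highest dlg1 value was that of WT replicate 1.

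In Sen guts the log2 fold changes over WT were all negative. That of Ssk was -0.40 (95% confidence interval -0.70 to -0.10, edgeR adjusted p = 0.210) and that of mesh -0.77 (-1.27 to -0.27, 0.157). Tsp2A had -0.47 (-0.88 to -0.07, 0.276) and cora -0.70 (-1.26 to -0.14, 0.245). No gene was thus called, though these 4 intervals and that of dlg1 (-0.53 to -0.006) lay below 0. scrib (-0.33), dlg1 (-0.27) and kune (-0.17) had smaller values, with edgeR adjusted p of 0.404, 0.340 and 0.685. Groups did not overlap, with Sen below WT, for all of the 7 but kune, and 14.0% of all genes lay wholly below WT in this way. By edgeR 0 of 7 were called, while 5 had an unadjusted p under 0.05, DESeq2 called 2 (mesh, adjusted p = 0.0285, and Ssk, 0.0712), and the fit of all 23 libraries called 2 (mesh, 0.0357, and cora, 0.0925). Of all 9637 genes, edgeR called 2.48% (1.20% lower), 14.3% had an unadjusted p under 0.05, DESeq2 called 6.57% and the fit of all libraries 5.51%.

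Without WT replicate 1 the log2 fold changes of these Sen guts were -0.43 for cora, -0.16 for scrib, -0.15 for dlg1 and -0.67 for mesh. Over all fits that left out 1 library, Ssk ranged from -0.45 to -0.36 and Tsp2A from -0.61 to -0.34. Visceral muscle markers summed to 888 to 1596 unscaled CPM in Sen guts, against 3071, 1636 and 957 in WT replicates 1, 2 and 3. They reached 2916 in OKSM-Sen replicate 2. Stem cell and enteroblast markers were lower in Sen guts, at 62.2 to 63.9 unscaled CPM against 81.3 to 127 in WT guts, with 3 of 9 called lower. Enterocyte markers were higher, at 45626 to 58529 in Sen guts and 31984 to 34464 in WT guts, with 2 of 10 called higher. Ovary and egg markers, at 5.83 and 11.5 unscaled CPM in the Sen libraries, lay above the 0.896 to 1.44 of WT guts, with 1 of 4 tested genes called higher. The part of these cells in the values of the junction genes was not tested.

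OKSM and OKSM-Sen guts of the ubiquitous model gave small log2 fold changes over WT, and no gene was called. The log2 fold changes of the 7 genes ran between -0.25 and -0.06 in OKSM guts and between -0.13 and 0.05 in OKSM-Sen guts, those of OKSM-Sen guts running between -0.04 and 0.15 as ratios of mean TPM. In TPM the median gene of OKSM-Sen guts stood 0.10 higher than in WT guts. By edgeR 0 were called in both, 0 had an unadjusted p under 0.05 in either, and DESeq2 called 0 in both, beside 1.09% of all genes for OKSM and 1.16% for OKSM-Sen. The widest 95% confidence interval, that of cora, was -0.73 to 0.25 in OKSM guts and -0.53 to 0.45 in OKSM-Sen guts, and the ISC values of cora for the same constructs, 0.18 and 0.28, lay inside them. For Ssk the intervals were -0.36 to 0.17 in OKSM guts and -0.28 to 0.25 in OKSM-Sen guts. In OKSM-Sen against Sen guts 0 genes were called by edgeR, 4 had an unadjusted p under 0.05 and DESeq2 called 2, beside 1.80%, 13.4% and 6.03% of all genes by these rules. For the interaction these numbers were 0, 4 and 1, beside 1.06%, 12.2% and 5.39% of all genes. Each of the 7 genes had a positive value in both comparisons. The values ran from 0.14 (dlg1) to 0.68 (mesh) over Sen guts and from 0.32 (kune) to 0.93 (mesh) for the interaction. The interactions of Ssk, mesh, Tsp2A and cora thus had the opposite sign to those in the ISC model. Both comparisons use the same Sen libraries. A single test of any difference over the 4 groups called 0 genes by edgeR and 1 at an unadjusted p under 0.05, beside 2.61% of all genes called by edgeR. Against OKSM guts, the log2 fold changes of OKSM-Sen guts were 0.06 to 0.20, with 0 called by edgeR or DESeq2 and 0 at an unadjusted p under 0.05, beside 0.301% of all genes.

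The response to a construct was compared between the models as a difference of log2 fold changes, each taken over the WT group of its own model, in one fit of the 23 libraries. For Sen the difference was positive for Ssk, mesh, Tsp2A, cora and scrib. Sen thus stood higher over WT under the stem cell driver than under the ubiquitous driver. It was 1.42 for mesh (95% confidence interval 0.90 to 1.95, edgeR adjusted p = 0.00116) and 1.39 for cora (0.80 to 1.98, 0.00288). For Tsp2A it was 1.19 (0.71 to 1.67, 0.00218), for Ssk 1.05 (0.67 to 1.42, 0.00103) and for scrib 0.54 (0.18 to 0.91, 0.0360). dlg1 (0.30, edgeR adjusted p = 0.116) and kune (-0.11, 0.791) did not pass. The 5 of 7 genes called stood beside 27.3% of all 9602 genes called and 14.2% called higher. The difference of scrib was lost without ubiquitous Sen replicate 2 (edgeR adjusted p = 0.165) and without both relabelled libraries (0.107).

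For OKSM only Ssk was called (0.59, 95% confidence interval 0.24 to 0.94, edgeR adjusted p = 0.0845), where 4.12% of all genes were called. Tsp2A had a like difference that did not pass (0.65, edgeR adjusted p = 0.123), and mesh had 0.50 (0.254). The call of Ssk was lost at a false discovery rate of 5%, with no filter on low counts, without both relabelled libraries and in several fits that left out 1 library. For OKSM-Sen 0 of 7 were called by edgeR, 2 had an unadjusted p under 0.05 (both higher) and DESeq2 called 0, beside 1.46% of all genes called by edgeR and 15.6% at that unadjusted p, with differences of 0.47 for Tsp2A and 0.39 for Ssk. Without ISC WT replicate 3 both of these passed, at 0.69 for Tsp2A and 0.57 for Ssk (edgeR adjusted p = 0.0502 and 0.0317). The WT groups themselves differed in level, with Ssk at 527 ± 106 CPM in ISC WT guts and 767 ± 46.7 CPM in ubiquitous WT guts, and mesh at 1587 ± 278 and 2207 ± 287 CPM (SD, n = 3 each). Driver, depth and batch cannot be told apart in that difference, and it was given no test.

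The 31 remaining genes of the septate junction lists (smooth junction, core and claudin-like, and assembly genes) were examined to see how far the change was shared. In Sen guts of the ISC model, 7 of 30 tested genes rose and 6 fell, near the 18.2% of all genes called higher and 18.3% called lower, with a median log2 fold change of -0.11 against -0.02 over all genes. hoka, which encodes a further smooth septate junction protein, rose (0.54, 244, 213 and 245 CPM in Sen guts against 144, 149 and 189 in WT guts), so that 4 of 4 smooth junction genes were called higher. Among core and claudin-like genes of the pleated junction, Gli (Gliotactin, of tricellular junctions, 0.89), M6 (0.64), bark (also of tricellular junctions, 0.60) and Fas3 (0.62) rose with cora. Lac (Lachesin, -1.04), the claudin-like gene sinu (-0.80) and Tsf2 (-0.65) fell, each edgeR adjusted p being under the false discovery rate of 10%. Of the assembly genes, the endosomal GTPase genes Rab5 (0.43) and Rab11 (0.31) rose, and udt (-1.15), nuf (-0.71) and bou (-1.07), needed for junction assembly or recycling, fell. Fas3, sinu, Tsf2 and bou were named after their values were seen. The call of Rab11 was lost without Sen replicate 3, WT replicate 1 or WT replicate 2, or without both relabelled libraries.

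Neighbouring systems of the epithelium were examined in the same comparison. Of 13 polarity genes 5 rose and 0 fell, and those that rose were scrib, Cdc42 (0.42), l(2)gl, the partner of Dlg and Scrib (0.40), yrt (0.28) and baz (0.29). The call of l(2)gl was lost without both relabelled libraries, that of yrt without these or Sen replicate 3, and that of baz in most fits that left out a library. Of 9 adherens junction genes 6 rose, among them Vinc (Vinculin, 0.81) and shg (E-cadherin, 0.39). Of 11 integrin adhesion genes 6 rose, among them Fit1 (0.75), the alpha subunit mew (0.72), rhea (Talin, 0.60) and the beta subunit mys (0.88). Visceral muscle markers were higher in the same guts (1935 to 2181 unscaled CPM against 1116 to 1423 in WT guts). The part of muscle in the values of these adhesion genes was not tested. Of 5 gap junction genes 3 fell, namely ogre (-1.85), Inx2 (-0.55) and Inx3 (-0.45), and the call of Inx3 was lost without Sen replicate 2 (edgeR adjusted p = 0.129) or WT replicate 1 (0.171), or without both relabelled libraries (0.124). The peritrophic matrix, the chitinous sheet that lines the lumen, gave mixed signs, with Crys (drosocrystallin, 2.73) and the mucin gene Mur29B (1.47) higher and Peritrophin-A (-2.20), Cda9 (-1.95) and Muc68D (-1.53, named after its value was seen) lower. Over all genes 18.2% were called higher and 18.3% lower in this comparison.

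**Figure D5:**
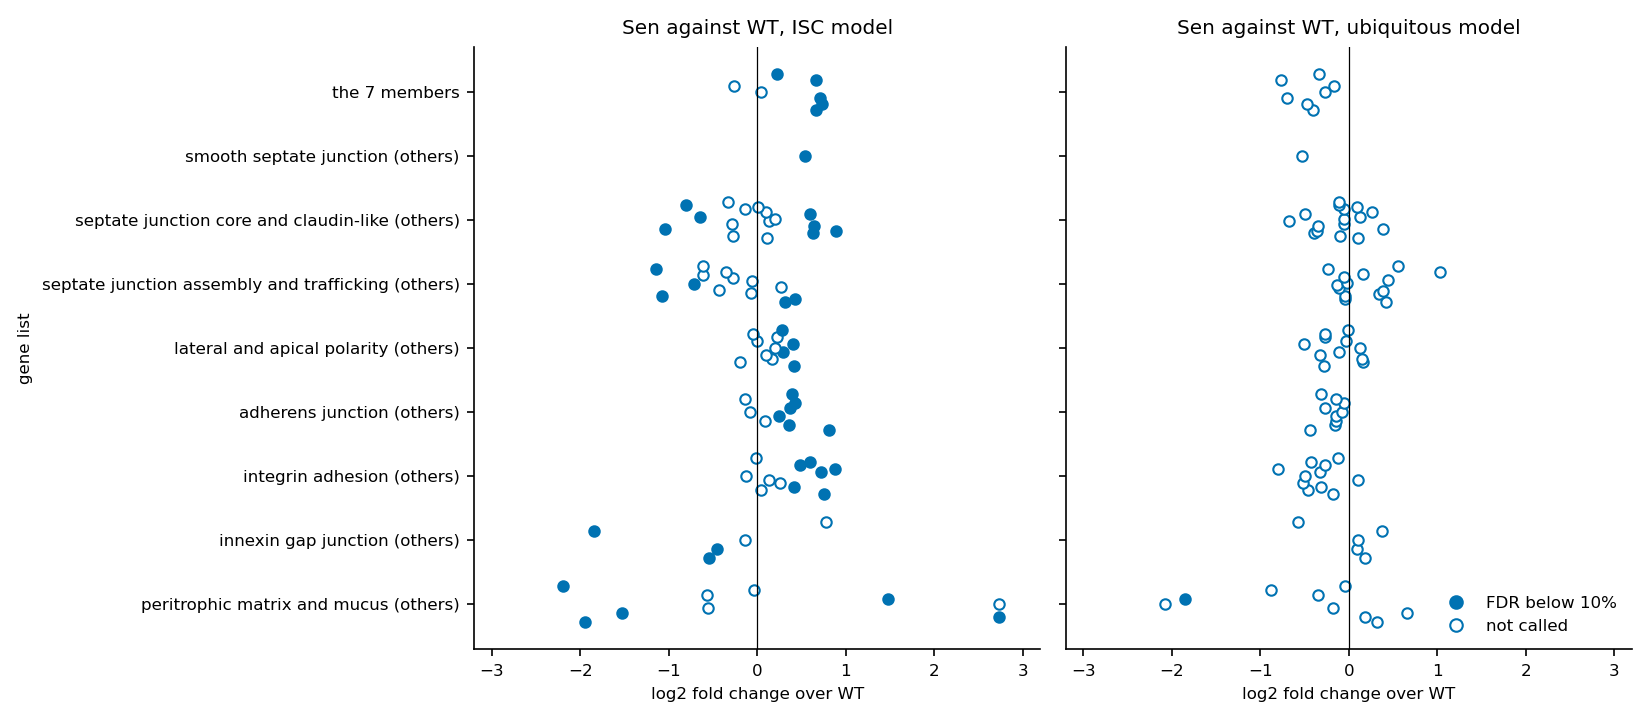
Log2 fold change of Sen over WT for the 7 genes and for each other tested gene of 8 gene lists (rows), in the ISC model (left) and in the ubiquitous model (right), with one point per gene and filled points for genes called at the false discovery rate of 10%. hoka, the one point of the smooth septate junction row, lies at 0.54 in the ISC model and below 0 in the ubiquitous model, and Ssk, mesh and Tsp2A, in the top row, likewise lie above 0 in the ISC model and below 0 in the ubiquitous model.

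In OKSM guts of the ISC model 5 of 30 other septate junction genes rose and 2 fell, and in OKSM-Sen guts 5 rose and 2 fell. Over all genes 32.3% were called for OKSM, 17.3% as higher, and 29.0% for OKSM-Sen, 15.7% as higher, so the shares of junction genes that rose were near the background. hoka rose in OKSM (0.36) and in OKSM-Sen guts (0.39), as did Gli (0.43 and 0.43) and M6 (0.57 and 0.54), and udt fell in both (-0.68 and -0.89). The call of hoka was lost without WT replicate 1 (edgeR adjusted p = 0.134 in OKSM and 0.102 in OKSM-Sen guts) or WT replicate 2 (0.132 and 0.109), and that of udt in OKSM guts without OKSM replicate 2 (0.112) or WT replicate 1 (0.105). These comparisons share their WT libraries with that of Sen. For OKSM and OKSM-Sen in turn, 3 and 3 of 13 polarity genes, 4 and 6 of 9 adherens junction genes and 7 and 6 of 11 integrin adhesion genes rose, and 2 and 1 of 5 gap junction genes fell. In the ubiquitous model 0 of 31 were called by edgeR in each group. In Sen guts an unadjusted p under 0.05 was found for 1 gene that was higher and 3 that were lower, and DESeq2 called 1, in OKSM guts 0 passed either, and in OKSM-Sen guts 1 gene each way had an unadjusted p under 0.05 and DESeq2 called 0. Of the other lists 1 gene was called in ubiquitous Sen guts, Mur29B, which fell (-1.85, edgeR adjusted p = 0.0474, 204 and 236 CPM in Sen guts against 787, 978 and 588 in WT guts). Of polarity, adherens junction and integrin adhesion genes 0 were called by edgeR in those guts, while 5, 2 and 5 were lower at an unadjusted p under 0.05 and DESeq2 called 0, 0 and 2, where 8.07% of all genes were lower at that unadjusted p and DESeq2 called 6.57%. The call of Mur29B was lost without either Sen library and without WT replicate 1 or 2. The same mucin gene rose in ISC Sen guts, so its direction differed between the models, as did that of the smooth junction genes, and the difference of Mur29B was not tested.

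Across the 23 libraries, with each model centred on its own mean, the log2 CPM of Ssk and Tsp2A had a Pearson correlation of 0.96, mesh and cora 0.94, mesh and Tsp2A 0.88, Ssk and mesh 0.87, and cora and scrib 0.88. kune stood apart, with correlations of -0.16 to 0.01 to the others. These values are descriptions, since the points share libraries, depth and groups. Among all genes outside the 7, those whose pattern was most like the mean of Ssk, mesh and Tsp2A were mys (0.968), hoka (0.968), Cortactin (0.964), capt (0.961) and CG15347 (0.949). mys, the integrin beta subunit gene, averaged 369 ± 33.4 CPM in OKSM, 483 ± 24.7 in Sen, 375 ± 18.1 in OKSM-Sen and 262 ± 67.3 in WT guts of the ISC model (SD, n = 3 each). In the ubiquitous model it averaged 386 ± 67.0, 231 ± 35.0, 421 ± 104 and 397 ± 96.8 CPM in the same order of groups (n = 2 for Sen, 3 otherwise). Within the ISC model mys was highest in Sen and lowest in WT guts, and in the ubiquitous model it was lowest in Sen guts, a likeness for which it was chosen.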

How the data were processed

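RNA of 23 midgut samples was sequenced as read pairs, and the authors aligned and quantified reads with STAR 2.7.1a and RSEM 1.3.1, named in the submitters' processing notes with build dm6. The deposited tables give per gene an expected count, TPM and FPKM made by the authors, with gene length and effective length. Expected counts were rounded to whole numbers, and TPM was used to order genes and to check the scale. The deposited FPKM values were not used. rRNA, snoRNA and snRNA genes and genes with a mean under 10 reads were left out. Each model was fitted on its own with edgeR 4.0.16 (TMM, robust quasi-likelihood F tests) in R 4.3.3, and differences between models in one fit of 23 libraries. p-values were adjusted by Benjamini-Hochberg over all genes tested, with a false discovery rate of 10%. The study's own DESeq2 approach was run as an alternative (DESeq2 1.42.0), beside DESeq2 size factors, no filter, a rate of 5%, a replicate block, the joint fit and fits leaving out libraries. Marker sums are in CPM of the deposited counts without TMM (unscaled CPM). Code was checked on simulated counts.

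The members and gene lists were chosen with earlier results of these data known. Named genes are the 7 members, and per list and comparison over WT at most the 4 called genes of smallest p, and the 5 genes most like the mean profile of Ssk, mesh and Tsp2A. Fas3, sinu, Tsf2, bou and Muc68D lie outside this rule and were named after their values were seen. Of the gene lists, a few symbols had no match and were left out. Confidence intervals are at 95%.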

Additional observations from a re-analysis of the deposited data

Results flagged for a closer look

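In the ISC model the effect of OKSM-Sen over WT fell short of the sum of the effects of OKSM and Sen. These effects share the same WT libraries. The interaction, in log2 units, was -0.84 for Tsp2A, -0.79 for Ssk, -0.67 for mesh and -0.60 for cora, each past the false discovery rate of 10% in edgeR. In the ubiquitous model the interactions of these genes were positive, and none was called. The response to Sen over WT differed between the models for 5 genes, in the fit of all 23 libraries. The difference, ISC minus ubiquitous, was 1.42 for mesh, 1.39 for cora, 1.19 for Tsp2A, 1.05 for Ssk and 0.54 for scrib. The response to OKSM over WT differed for Ssk, by 0.59. No group held 4 or more libraries, so single libraries far from the rest of their group were not looked for by a formal rule.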

How the results depend on the processing

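The numbers of the 7 genes called over WT in the ISC model were 2 for OKSM, 5 for Sen and 2 for OKSM-Sen, and leaving out 1 library gave 2 to 4, 4 to 5 and 0 to 4. The higher counts for OKSM and OKSM-Sen came without WT replicate 3, and the lower for OKSM-Sen without WT replicate 2. For the interaction in the ISC model the count was 4 (3 to 4), and for any difference 5 (4 to 5). In the ubiquitous model, and for OKSM-Sen over OKSM and over Sen in the ISC model, the count was 0 without any 1 library, and between models it was 4 to 6 for Sen, 0 to 2 for OKSM and 0 to 2 for OKSM-Sen. DESeq2 called 2 for Sen over WT in the ubiquitous model, 2 for OKSM-Sen over Sen and 1 for the interaction there, 2 for OKSM-Sen over Sen in the ISC model, and 2 for the OKSM difference between models, beside 6.57%, 6.03%, 5.39%, 2.95% and 8.99% of all genes in this order. The fit of all 23 libraries called 2 for Sen over WT, 1 for OKSM-Sen over Sen, 1 for the interaction and 1 for any difference in the ubiquitous model, beside 5.51%, 5.22%, 3.15% and 7.52% of all genes. Without both relabelled libraries 1 gene was called for OKSM-Sen over WT, 2 for the interaction in the ISC model and 0 for the OKSM difference between models (17.5% and 7.54% of all genes, and 125 of 9618 genes), which was also 0 at a false discovery rate of 5% and 0 with no filter on low counts (1.08% and 1.37% of all genes). The cause of these changes was not tested. DESeq2 size factors within edgeR kept every count within 1.5 times the one reported.

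With the replicate number as a block, the counts in the ISC model were 2 for OKSM, 5 for Sen, 2 for OKSM-Sen, 4 for the interaction and 4 for any difference, and between models 1 for OKSM, 5 for Sen and 0 for OKSM-Sen, with 0 over WT in the ubiquitous model. In the ISC model 2 of 12 libraries, and in the ubiquitous model 4 of 11, correlated best with a library of their own number. In the ISC model the median correlation was -0.005 for same-numbered pairs and -0.030 for other pairs. In the ubiquitous model these medians were 0.091 and -0.051. Whether the number marks a shared batch was not tested.

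Signs of genes that were not called turned in some fits. Without both relabelled libraries scrib in OKSM-Sen guts of the ISC model had a log2 fold change of -0.000756. The other turns came from leaving out 1 library. For OKSM over WT of the ubiquitous model, the range was -0.16 to 0.000933 for Tsp2A and -0.41 to 0.0254 for cora. For Sen over WT of the ubiquitous model, the range was -0.42 to 0.0664 for kune. For OKSM-Sen over WT of the ubiquitous model, the range was -0.12 to 0.0593 for Ssk, -0.23 to 0.0611 for mesh, -0.0844 to 0.18 for Tsp2A, -0.21 to 0.23 for cora, -0.0101 to 0.11 for kune and -0.15 to 0.10 for scrib. For OKSM-Sen over WT of the ISC model, the range was -0.22 to 0.0097 for kune, -0.0633 to 0.0107 for dlg1 and -0.00159 to 0.0626 for scrib. For the interaction in the ISC model, the range was -0.0672 to 0.0435 for dlg1. For the difference between models in the response to OKSM, the range was -0.25 to 0.0579 for kune and -0.10 to 0.15 for scrib. For the difference between models in the response to Sen, the range was -0.32 to 0.14 for kune. For the difference between models in the response to OKSM-Sen, the range was -0.0278 to 0.15 for dlg1 and -0.0919 to 0.16 for scrib. In the ISC model the level ratios of scrib and dlg1 over WT were higher in TPM than in CPM, as was that of the median gene. Depth limits kune most, which had 122 to 506 reads per library.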
